A study of Rattus norvegicus with 9 samples.

Results

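The genes of the kainate receptors and of their Neto auxiliary subunits were examined in the dorsal hippocampus of rats exposed to valproic acid (VPA) before birth. They are Grik1, Grik2, Grik3, Grik4 and Grik5, which encode the channel subunits, and Neto1 and Neto2, which encode the auxiliary subunits. They were chosen by symbol, and each of these 7 genes, of 18166 genes named on the array, was read by 1 probe set of the 18511 that carry 1 symbol and of 30429 in all.

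Kainate receptors are tetrameric glutamate-gated channels. The subunits encoded by Grik1, Grik2 and Grik3 can form channels by themselves, whereas those encoded by Grik4 and Grik5 bind kainate with high affinity and reach the surface as channels only together with one of the former. Neto1 and Neto2 are single-pass membrane proteins with CUB domains that bind the channel, slow its closing and alter its placement at synapses. In the rodent hippocampus these receptors are best known at the mossy fibre synapses, where granule cells of the dentate gyrus contact CA3 pyramidal cells, and in interneurons.

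Gene expression was measured on 9 arrays, 1 per male Sprague-Dawley rat aged 8 weeks, in 3 groups of 3. Dams of both VPA groups received 600 mg/kg VPA once by mouth during pregnancy, and control dams received water. From postnatal day 21 to 55 the pups received vehicle (control and vehicle-treated VPA groups) or 12 µg/kg oxytocin (OXT) a day through the nose (OXT-treated VPA group), and RNA was taken on day 56. No control rats with OXT were among these arrays. Control pups were born to 2 dams and the 6 VPA pups to 3 dams. The labels do not tie an array to a dam, so that the spread between arrays could not be separated into litter and rat. Values are log2 levels as deposited, and differences are on this log2 scale. The fit by limma covered all probe sets and all 9 arrays. A gene was called higher or lower at an unadjusted p under 0.05, and the p printed beside each difference is the one adjusted over the whole array by Benjamini-Hochberg.

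The promoter-side sequences of the 3 genes that were called between vehicle-treated VPA and control are shown first, with that of Neto2, the auxiliary subunit gene with the opposite sign to Neto1. They are the 250 bases before the annotated gene start in RefSeq (assembly GRCr8), written 5' to 3' on the strand of the gene. GC boxes (GGGCGG on either strand), the letters read by transcription factors of the Sp family, are in capitals. The windows lie at chr8:52102064-52102313 (minus strand), chr11:41056504-41056753 (minus strand), chr18:81910203-81910452 (plus strand) and chr19:37517305-37517554 (plus strand).
Grik4: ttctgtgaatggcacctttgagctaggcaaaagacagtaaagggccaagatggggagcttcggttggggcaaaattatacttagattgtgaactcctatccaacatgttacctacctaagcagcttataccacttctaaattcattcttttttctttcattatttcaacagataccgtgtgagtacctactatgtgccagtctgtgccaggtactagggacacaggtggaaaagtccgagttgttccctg
Grik1: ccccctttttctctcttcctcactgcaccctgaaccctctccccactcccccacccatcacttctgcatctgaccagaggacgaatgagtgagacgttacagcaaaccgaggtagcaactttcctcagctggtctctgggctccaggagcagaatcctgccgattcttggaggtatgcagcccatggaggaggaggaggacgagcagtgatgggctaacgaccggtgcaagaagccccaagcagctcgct
Neto1: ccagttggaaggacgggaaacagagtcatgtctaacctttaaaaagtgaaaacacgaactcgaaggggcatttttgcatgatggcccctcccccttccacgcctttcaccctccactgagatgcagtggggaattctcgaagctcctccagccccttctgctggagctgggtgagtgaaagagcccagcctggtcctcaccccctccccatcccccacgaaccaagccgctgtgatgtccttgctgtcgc
Neto2: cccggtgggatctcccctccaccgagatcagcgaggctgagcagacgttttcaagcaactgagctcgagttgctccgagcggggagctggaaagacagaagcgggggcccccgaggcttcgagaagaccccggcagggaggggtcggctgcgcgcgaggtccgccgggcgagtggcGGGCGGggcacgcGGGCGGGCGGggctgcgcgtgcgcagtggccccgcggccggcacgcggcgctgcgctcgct

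The GC box was found 3 times in the window of Neto2, 2 of these overlapping, and in none of the other windows shown. In the remaining windows it stood 5 times in Grik3, once in Grik5 and in 0 places in Grik2. Of 33469 such windows of all genes, 30.5% held it. GC content was 74.4% in the window of Neto2, 56.8% in Neto1, 57.6% in Grik1 and 43.2% in Grik4. The core of the cyclic AMP response element (CGTCA on either strand) was found only in the window of Grik2 among the 7, and 18.2% of all windows held it. The annotated start of Grik4 lies 126688 bases inside the outermost end of the gene and that of Neto1 4998 bases inside, so these windows need not be the start used in the hippocampus. A missing match says only that these letters are not in this window.

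In vehicle-treated VPA rats compared with control, Grik4 and Neto1 were lower and Grik1 was higher, while Grik2, Grik3, Grik5 and Neto2 did not pass. Of all probe sets, 8.98% were called in this comparison (5% higher and 3.98% lower), beside 3 of the 7 genes. None of the 7 passed at an adjusted p under 0.05, nor did any of the 30429 probe sets. The median difference of the 7 genes was 0.163, beside 0.00667 over all probe sets. Arrays of the 2 groups did not overlap for 5 of the 7 genes (Grik1 and Neto2 above control, Grik4, Grik5 and Neto1 below), as for 13.6% of all probe sets (6.66% above and 6.92% below). None of the 7 met the criteria of the study for differentially expressed genes (DEGs), which 0.654% of the probe sets met. These criteria are an F test over the 3 groups at p under 0.05, a change of vehicle-treated VPA from control beyond 1.5-fold, and a mean level over 6.6 in at least 1 group. Grik1, Grik4 and Neto1 passed the F test (7.54% of all probe sets did), but their differences stayed short of 0.585, the log2 of 1.5.

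**Figure D1:**
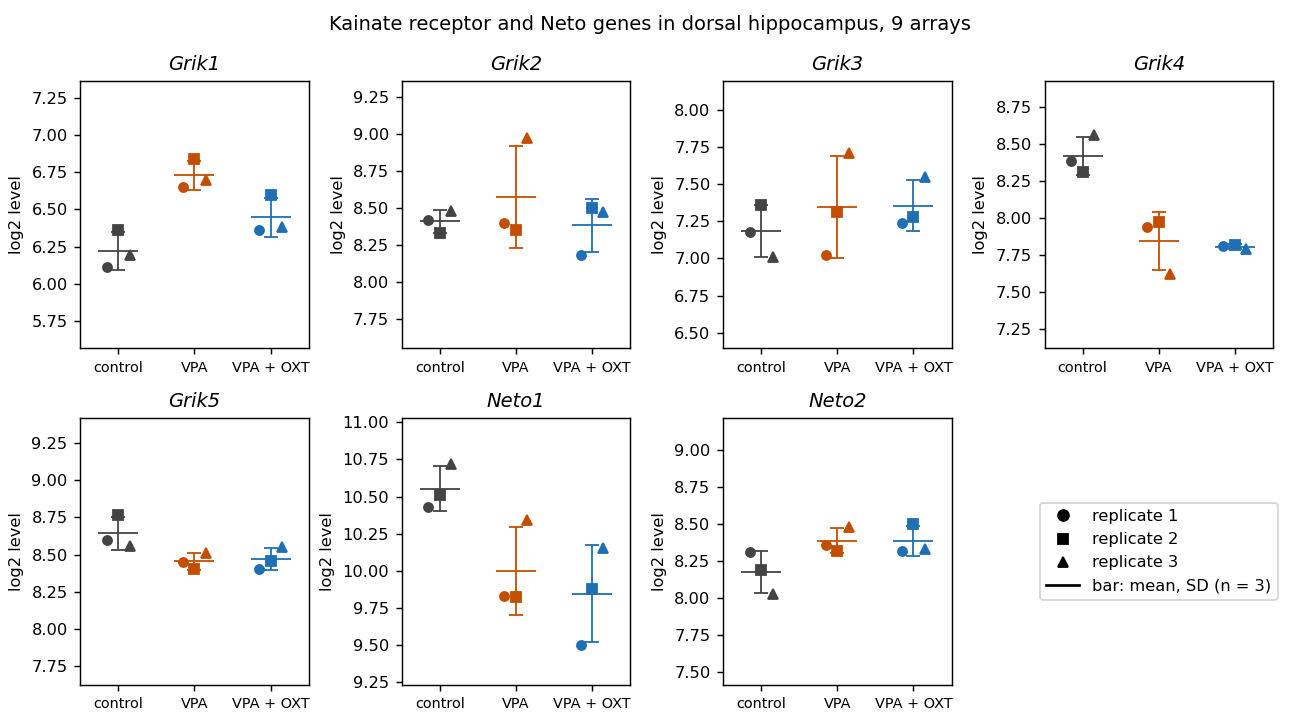
Log2 level (vertical axes, each spanning the same range) of the 7 genes in the control, vehicle-treated VPA (VPA) and OXT-treated VPA (VPA + OXT) groups, with 1 symbol per array by replicate number and bars for the mean and SD (n = 3). Grik4 and Neto1 lay below control on all 6 VPA arrays, and Grik1 was highest on the vehicle-treated VPA arrays, from 6.65 to 6.84.

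Of the subunits that can form channels by themselves, Grik1 encodes the one that is prominent in interneurons. Its log2 level was 6.11, 6.36 and 6.19 on the control arrays, 6.65, 6.84 and 6.70 on the vehicle-treated VPA arrays, and 6.36, 6.6 and 6.38 on the OXT-treated VPA arrays. The vehicle-treated VPA arrays were the 3 highest, and the lowest OXT-treated arrays lay at the level of the highest control array. The group means were 6.22 ± 0.128, 6.73 ± 0.0985 and 6.45 ± 0.133 (SD, n = 3). The vehicle-treated VPA group was higher than control by 0.51 (SE 0.104, 1.42-fold; limma, adjusted p = 0.172), which was rank 161 of all probe sets by p. The level of Grik1 exceeded 6.6 only in the mean of the vehicle-treated VPA group, so that it passed a filter on level only through the group in which it was high.

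Grik1 was also the only gene of the 7 called between the VPA groups. It was lower with OXT than with vehicle by 0.28 on the log2 scale (difference -0.28, SE 0.104, 95% interval -0.52 to -0.0468; limma, adjusted p = 1). All 3 OXT-treated arrays lay below the vehicle-treated VPA arrays, as for 3.33% of all probe sets (6.33% in either direction). This call and that against control share the vehicle-treated VPA arrays, so they are not independent. Against control, the OXT-treated VPA group differed by 0.23 (SE 0.104, 95% interval -0.00987 to 0.463; limma, adjusted p = 0.696). The call between the VPA groups was lost without vehicle-treated VPA replicate 2 (-0.23) and without OXT-treated VPA replicate 1 (-0.24) or 3 (-0.25).

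Grik2 encodes the most widely expressed of these subunits in the hippocampus, and Grik3 a subunit of low glutamate sensitivity. Grik2 had a level of 8.42, 8.33 and 8.48 on the control arrays, 8.40, 8.35 and 8.97 on the vehicle-treated VPA arrays, and 8.18, 8.50 and 8.47 on the OXT-treated VPA arrays. Grik3 had a level of 7.18, 7.36 and 7.01 in control, 7.02, 7.31 and 7.71 in vehicle-treated VPA, and 7.24, 7.28 and 7.55 in OXT-treated VPA rats. For both genes vehicle-treated VPA replicate 3 was the highest of the 9 arrays, and all groups overlapped. The vehicle-treated VPA group differed from control by 0.16 for Grik2 (95% interval -0.216 to 0.543; limma, adjusted p = 0.793) and by 0.16 for Grik3 (95% interval -0.24 to 0.567; limma, adjusted p = 0.805). Without replicate 3 of both VPA groups these differences were -0.035 and -0.018. The intervals leave room for differences of either sign.

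Of the high-affinity subunits, Grik4 encodes the one that is concentrated in CA3 and the dentate gyrus in rodents, and Grik5 the one that is broadly expressed. Grik4 had a level of 8.38, 8.31 and 8.56 on the control arrays, 7.94, 7.97 and 7.62 on the vehicle-treated VPA arrays, and 7.81, 7.82 and 7.79 on the OXT-treated VPA arrays. All 6 VPA arrays lay below every control array, and the OXT-treated arrays lay closest together. The group means were 8.42 ± 0.129, 7.84 ± 0.194 and 7.81 ± 0.0153 (SD, n = 3). The difference from control was -0.57 in the vehicle-treated VPA group (SE 0.112, 0.672-fold; limma, adjusted p = 0.146) and -0.61 in the OXT-treated VPA group (SE 0.112, 0.655-fold; limma, adjusted p = 0.142). These comparisons share the control arrays. By p, Grik4 stood at rank 141 in the former and at rank 65 in the latter. Between the VPA groups it differed by -0.04 (95% interval -0.291 to 0.217; limma, adjusted p = 1), and the upper end of this interval stayed short of the distance to control.

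Grik5 was measured at 8.60, 8.77 and 8.56 in control, 8.45, 8.40 and 8.51 in vehicle-treated VPA, and 8.40, 8.46 and 8.55 in OXT-treated VPA rats. Every VPA array lay below the control arrays, the nearest by only the distance between 8.55 and 8.56. The difference from control was -0.19 (SE 0.0859; limma, adjusted p = 0.563) with vehicle and -0.17 (SE 0.0859; limma, adjusted p = 0.723) with OXT, and neither passed.

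Neto1 encodes an auxiliary subunit that is abundant in CA3 pyramidal cells, where it slows the kainate receptor current. Its level was 10.43, 10.51 and 10.72 on the control arrays, 9.83, 9.82 and 10.34 on the vehicle-treated VPA arrays, and 9.50, 9.88 and 10.15 on the OXT-treated VPA arrays. No VPA array reached the control arrays, and in both VPA groups replicate 3 was the highest. Neto1 fell by 0.56 in the vehicle-treated VPA group (SE 0.193, 0.68-fold; limma, adjusted p = 0.444) and by 0.71 in the OXT-treated VPA group (SE 0.193, 0.611-fold; limma, adjusted p = 0.385). The difference between the VPA groups was -0.15 (95% interval -0.593 to 0.286; limma, adjusted p = 1). The call between vehicle-treated VPA and control was lost without control replicate 3 (-0.47) and without vehicle-treated VPA replicate 1 (-0.47) or 2 (-0.47).

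Neto2, the other auxiliary subunit gene, had a level of 8.31, 8.19 and 8.03 in control, 8.36, 8.32 and 8.48 in vehicle-treated VPA, and 8.32, 8.50 and 8.33 in OXT-treated VPA rats. All 6 VPA arrays lay above the control arrays, by little on the lowest ones. The difference from control was 0.21 with vehicle (95% interval -0.0148 to 0.435; limma, adjusted p = 0.577) and 0.21 with OXT (95% interval -0.0182 to 0.432; limma, adjusted p = 0.715), and neither passed. Thus the auxiliary subunit genes had differences of opposite sign in both VPA groups, and only that of Neto1 passed.

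**Figure D2:**
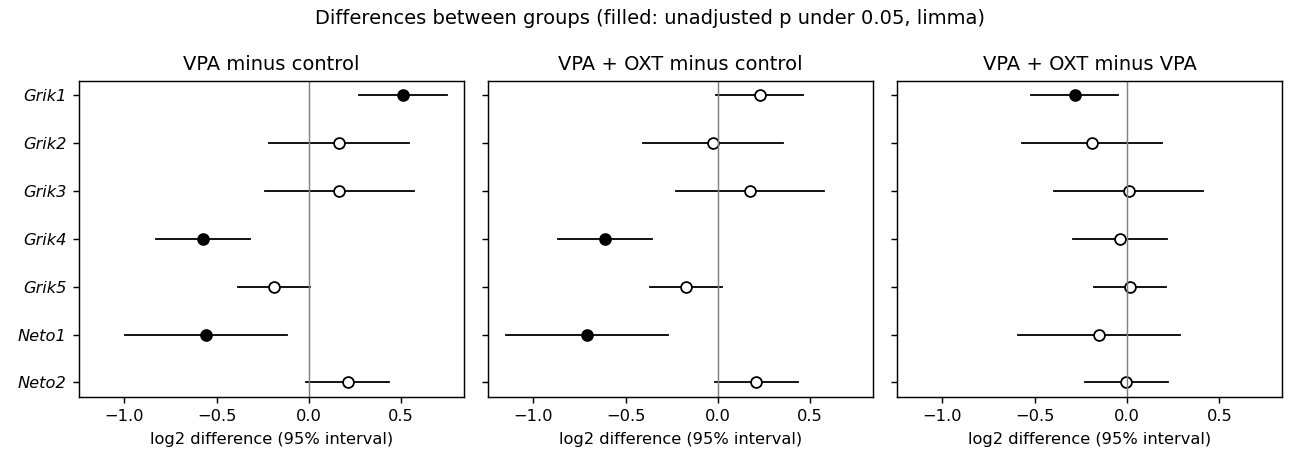
Differences in log2 level (horizontal axes, points) with 95% intervals (lines) for the 7 genes in 3 comparisons, where filled points passed an unadjusted p under 0.05 (limma). Grik4 and Neto1 lay below control with vehicle and with OXT, whereas between the VPA groups only Grik1 passed, at -0.28.

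In the OXT-treated VPA group, 2 of the 7 genes, Grik4 and Neto1, were lower than control and 0 were higher, beside 7.38% of all probe sets called (3.87% higher and 3.51% lower). Arrays lay wholly above control for Neto2 (6.16% of all probe sets) and wholly below for Grik4, Grik5 and Neto1 (5.87%; 12% in either direction). The median difference of the 7 genes was -0.0267, beside 0.00667 over all probe sets. With OXT against vehicle in VPA rats, 1 gene was lower and 0 were higher, beside 4.66% of all probe sets (1.86% higher and 2.81% lower), and the median was -0.0367, beside 0.00333. For the other 6 genes the interval of the difference between the VPA groups held 0.

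When the 6 VPA arrays were set against control, 5 of the 7 genes were called, beside 9.31% of all probe sets (4.97% higher and 4.34% lower). All 6 arrays lay above control for Neto2 (2.76% of all probe sets) and below control for Grik4, Grik5 and Neto1 (3.17%; 5.93% in either direction). Grik1 and Neto2 were higher, and Grik4, Grik5 and Neto1 were lower. Grik4 was lower by 0.59 (difference -0.59, SE 0.0967, 95% interval -0.812 to -0.372; limma, adjusted p = 0.0687), at rank 56, and Neto1 fell by 0.63 (SE 0.167; limma, adjusted p = 0.25). Grik1 rose by 0.37 (SE 0.0901; limma, adjusted p = 0.206). The smaller differences were -0.18 for Grik5 (SE 0.0744; limma, adjusted p = 0.507) and 0.21 for Neto2 (SE 0.0857; limma, adjusted p = 0.508). Grik2 and Grik3 differed by 0.07 and 0.17 and did not pass. None of the 7 passed at an adjusted p under 0.05, which 0.00657% of the probe sets did.

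Transcripts of neighbouring tissue differed between arrays of the same group. The mean log2 level of 14 thalamus markers (such as Slc17a6, Calb2 and Plekhg1) was between 6.29 and 6.59 in control. Of the 14, 3 were higher and 1 was lower with vehicle than in control, and 4 were higher and 1 was lower with OXT. Their mean was 7.72 and 7.32 on vehicle-treated VPA replicates 1 and 2 but 6.25 on replicate 3, and 7.93 and 7.70 on OXT-treated VPA replicates 1 and 2 but 6.38 on replicate 3. The 3 named markers did not all follow the mean on replicate 3. Slc17a6 stood there at 7.67 with vehicle and 7.71 with OXT (6.09 to 6.77 in control). Calb2 stood at 7.22 and 7.6 (6.12 to 6.65 in control), whereas Plekhg1 lay below control at 7.18 and 7.38 (7.92 to 8.25 in control). The 4 VPA arrays numbered 1 and 2, where the mean of the thalamus markers was high, were also the 4 on which Neto1 was lowest. Over the 9 arrays the correlation of Neto1 with the mean of the thalamus markers was -0.862, and over the 6 VPA arrays -0.919. For Grik4 these values were -0.313 and 0.635, and for Grik1 0.344 and -0.0509. Over the 9 arrays and the 6 VPA arrays they were -0.75 and -0.818 for Grik5, -0.507 and -0.75 for Grik2, -0.482 and -0.901 for Grik3, and 0.315 and -0.188 for Neto2. These values are descriptions, since the arrays share groups.

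Leaving out these 4 arrays keeps 1 array in each VPA group, whose spread is then assumed to be that of the control arrays. In that fit 23.3% of all probe sets were called between vehicle-treated VPA and control, 14.7% between OXT-treated VPA and control and 20% between the VPA groups, so that a call there says less than one over all arrays. Grik4 then differed from control by -0.80 with vehicle (limma, adjusted p = 0.127) and by -0.63 with OXT (limma, adjusted p = 0.285), and both calls at the unadjusted p stayed. Neto1 then differed by -0.21 with vehicle (limma, adjusted p = 0.478) and by -0.40 with OXT (limma, adjusted p = 0.365), and both its calls were lost. Grik1 differed from control by 0.48 with vehicle (limma, adjusted p = 0.177), a call that stayed, while its call between the VPA groups was lost (-0.32; limma, adjusted p = 0.372). Grik2 and Grik3, which had not passed over all arrays, were then called between vehicle-treated VPA and control, with differences of 0.56 (limma, adjusted p = 0.126) and 0.53 (limma, adjusted p = 0.212). Grik2 was also called between the VPA groups (-0.50; limma, adjusted p = 0.179). In these values the vehicle-treated VPA group is replicate 3 alone, the highest array for both genes. Without replicate 3 of both VPA groups Neto1 differed from control by -0.73 with vehicle (limma, adjusted p = 0.184) and by -0.86 with OXT (limma, adjusted p = 0.101). The part of thalamic tissue in these differences was not tested. Both choices of arrays were made after seeing the data.

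**Figure D3:**
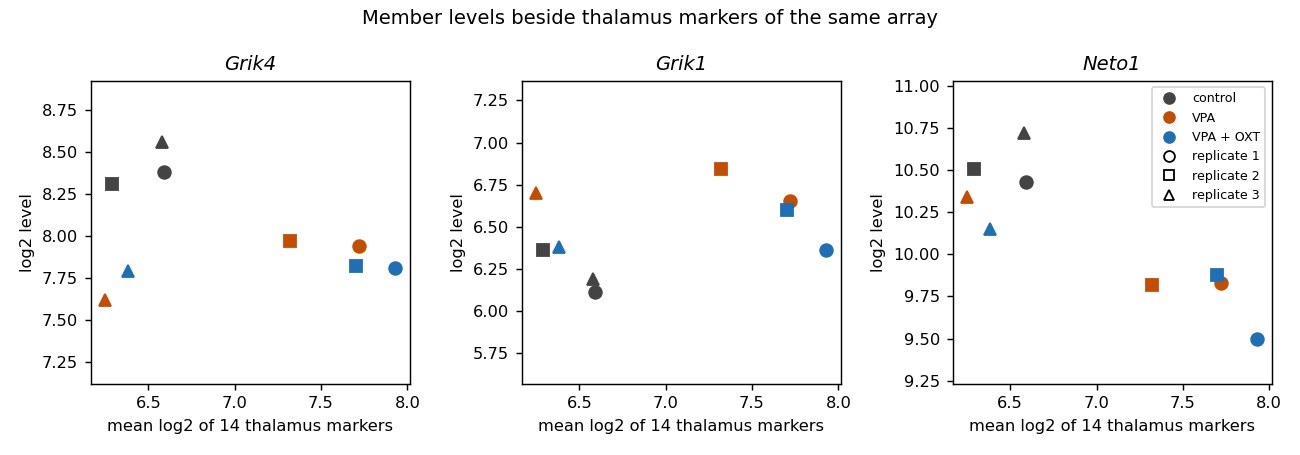
Log2 level of Grik4, Grik1 and Neto1 (vertical axes) against the mean log2 level of 14 thalamus markers (horizontal axes) on the same array, with colours for groups and symbols for replicates. Neto1 was lowest, between 9.50 and 9.88, on the 4 VPA arrays with high thalamus markers. Both Neto1 and Grik4 lay below the control arrays on all 6 VPA arrays, Neto1 at 10.34 and 10.15 on those numbered 3.

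Genes of the choroid plexus also differed in the comparisons in which Grik1 was called, but OXT-treated replicate 3 lay in the vehicle-treated VPA range. The mean log2 level of 19 choroid plexus markers (such as Ttr, Igf2 and Slc13a4) was 6.98 to 7.80 in control, 5.40 to 5.98 in vehicle-treated VPA and 5.87 to 8.14 in OXT-treated VPA rats. Of the 19 markers, 15 were lower in vehicle-treated VPA than in control, and 16 were higher with OXT than with vehicle. Over the 9 arrays Grik1 had a correlation of -0.674 with their mean. Grik2, which was not called over all arrays, had -0.609. The others had -0.421 (Grik3), 0.458 (Grik4), 0.21 (Grik5), -0.0258 (Neto1) and -0.305 (Neto2). On OXT-treated VPA replicates 1 and 3 the markers lay at 8.14 and 5.87, and Grik1 at 6.36 and 6.38. The part of the choroid plexus in the result for Grik1 was not tested.

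Markers of the cells in which Grik4 and Neto1 are known to be expressed were partly lower as well. The mean log2 level of 6 CA3 pyramidal cell markers (such as Bok) was 7.26 to 7.32 in control, 6.82 to 7.07 in vehicle-treated VPA and 6.99 to 7.14 in OXT-treated VPA rats, with no overlap of control and VPA arrays. Of these 6, Dkk3 and Cpne4 were lower in vehicle-treated VPA than in control, with differences of -0.56 and -0.70, and 4 did not pass. With OXT 2 of the 6 were lower than control. The mean of 6 markers of hippocampal principal cells (such as Slc17a7, Zbtb18 and Neurod6) was 9.27 to 9.31 in control, 8.89 to 8.99 with vehicle and 8.77 to 9.07 with OXT, and 4 of the 6 were lower with vehicle and 4 with OXT than in control. Of 5 dentate granule cell markers (such as Rfx3, Trpc6 and Prox1), 0 passed in either direction, and their mean was 6.90 to 6.98, 6.79 to 7.05 and 6.73 to 7.06. Of 5 CA1 pyramidal cell markers, 0 passed with vehicle or with OXT against control. Their mean was 7.58 to 8.6 in control, 7.53 to 8.2 with vehicle and 8.01 to 8.15 with OXT. It was lowest on replicate 3 in control and in vehicle-treated VPA. The mean of 6 markers of the ventral hippocampus was 7.58 to 7.85 with vehicle and 7.83 to 8.21 with OXT, against 7.14 to 7.32 in control. Of these 6, Nr2f2, Galr1 and Htr2c were higher with vehicle and 3 did not pass, among them Dcn with a difference of -0.27, and with OXT 4 were higher than control. The mean of 8 oligodendrocyte markers was 9.56 to 9.96 in control, 8.90 to 9.55 with vehicle and 9.06 to 9.49 with OXT, and 1 of the 8 was lower in each VPA group than in control. In this bulk tissue, fewer cells of a type and less RNA per cell cannot be told apart, and the part of these markers in the results for Grik4 and Neto1 was not tested.

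Markers of interneurons, the cells in which Grik1 is prominent, moved in both directions. The mean of the 10 markers (such as Gad2, Gad1 and Npy) was 7.94 to 8.05 in control, 7.92 to 8.15 in vehicle-treated VPA and 7.80 to 8.01 in OXT-treated VPA rats, and these ranges overlapped. Gad1, which encodes an enzyme of GABA synthesis, was higher in vehicle-treated VPA than in control by 0.46, and the other 9 did not pass. Between the VPA groups, where Grik1 was lower with OXT, the somatostatin gene Sst was lower as well (difference -0.36), with all OXT-treated arrays below the vehicle-treated ones, and the other 9 did not pass. Against control, Gad1 was higher with OXT by 0.41, whereas Sst and the neuropeptide Y gene Npy were lower, with differences of -0.47 and -0.35. The part of these cells in the results for Grik1 was not tested.

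A list of 20 measured genes for editing, trafficking, modification and synaptic recruitment of kainate receptors (23 were listed) was read as well. In vehicle-treated VPA against control 3 were lower and 0 higher (15%, beside 8.98% of all probe sets, 3.98% lower). The remaining 17 did not pass, and the median difference was -0.025. In OXT-treated VPA against control 1 was lower and 0 were higher (5%, beside 7.38% of all probe sets). Between the VPA groups 0 passed (4.66% of all probe sets did). Prkca encodes protein kinase C alpha, of the kinase family that phosphorylates the subunit of Grik2 and promotes its removal from the membrane. Its level was 10.30, 10.41 and 10.57 in control, 9.88, 9.86 and 9.45 in vehicle-treated VPA, and 9.66, 9.78 and 9.63 in OXT-treated VPA rats. As for Grik4, all VPA arrays lay below control, and vehicle-treated VPA replicate 3 was the lowest array. Prkca fell by 0.70 with vehicle (SE 0.130; limma, adjusted p = 0.134) and by 0.74 with OXT (SE 0.130; limma, adjusted p = 0.142), and it was the only gene of the list to meet the criteria for DEGs.

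The other 2 genes of the list that were lower with vehicle were Ppp3ca and Pias3. Ppp3ca, which encodes the catalytic subunit of the phosphatase calcineurin, fell by 0.28 (SE 0.0891; limma, adjusted p = 0.393). Pias3, which encodes a SUMO ligase, fell by 0.34 (SE 0.122; limma, adjusted p = 0.457). Their differences in the OXT-treated VPA group, -0.18 and -0.14, did not pass. C1ql2 encodes a secreted protein of mossy fibres that recruits kainate receptors to the synapse. It was at 8.18, 8.04 and 7.79 in control, 7.92, 7.91 and 8.15 with vehicle, and 8.12, 8.45 and 8.17 with OXT, and did not pass in any comparison. The scaffold genes Grip1 and Dlg3, the catenin gene Ctnnb1 and the SUMO protease gene Senp1 did not pass in these comparisons either.

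**Figure D4:**
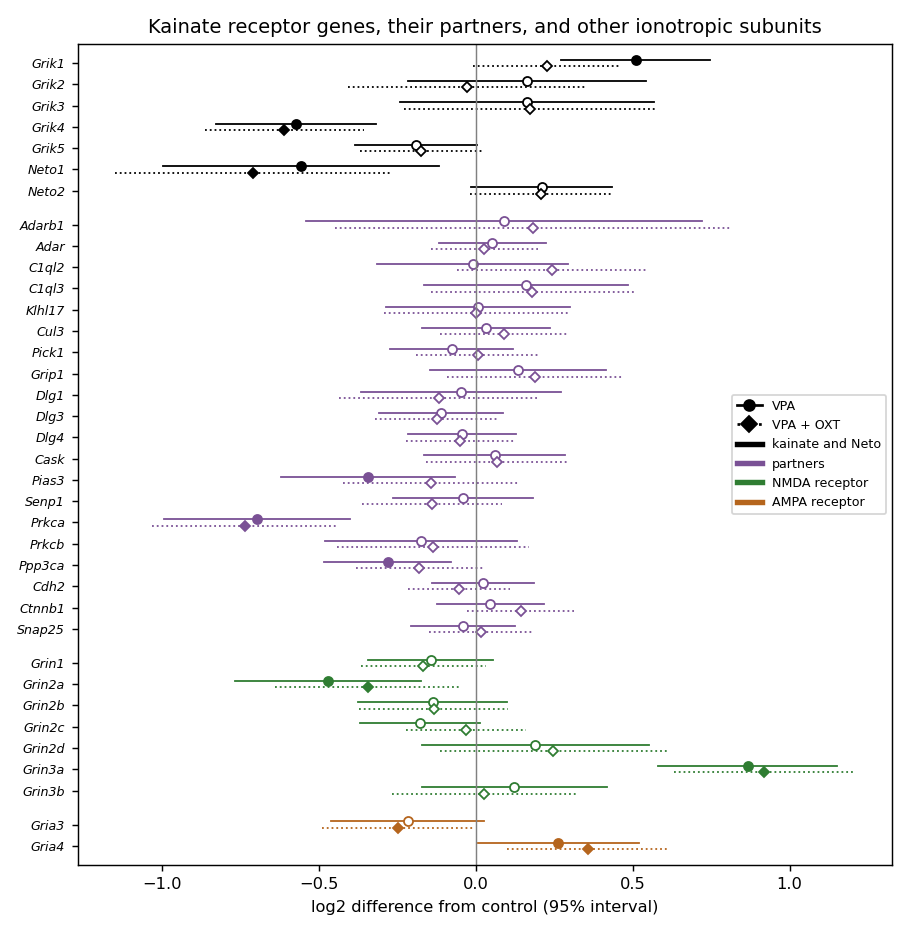
Differences from control in log2 level (horizontal axis) with 95% intervals for the kainate and Neto genes, their partners, and NMDA and AMPA receptor subunit genes, with circles and solid lines for vehicle-treated VPA and diamonds and dotted lines for OXT-treated VPA (filled: unadjusted p under 0.05, limma). Among the partners Prkca lay farthest from 0, at -0.70 and -0.74, and most other partners lay near 0.

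Genes of the other ionotropic glutamate receptors were read in the same way. Of 7 NMDA receptor subunit genes, Grin3a was higher by 0.87 and Grin2a was lower by 0.47 (difference -0.47) in vehicle-treated VPA, and 5 did not pass. With OXT, Grin3a differed from control by 0.92 and Grin2a by -0.34, and both passed. Of the AMPA receptor genes only Gria3 and Gria4 were measured here. Gria4 was higher by 0.26 with vehicle (limma, adjusted p = 0.542) and by 0.36 with OXT (limma, adjusted p = 0.473). Gria3 differed by -0.22 with vehicle (limma, adjusted p = 0.587), which did not pass, and by -0.25 with OXT (limma, adjusted p = 0.669), which did. Of 7 genes with CUB domains of the kind found in auxiliary subunits, Neto1 included, only Neto1 passed in vehicle-treated VPA, and Sez6 differed by -0.14.

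Across arrays the 7 genes did not follow 1 pattern. Over the 9 arrays Grik4 and Neto2 were the most opposed pair, with a correlation of -0.84, or -0.635 after the group means were taken out. Within groups Grik3 and Grik4 were the most opposed, at -0.838 (-0.63 over the 9 arrays). Grik5 and Neto1 had the highest over the 9 arrays, 0.779, with 0.469 within groups. Grik4 and Neto1, both lower in VPA rats, had 0.659 over the 9 arrays but -0.404 within groups, since replicate 3 of the vehicle-treated VPA group was the lowest array for Grik4 and the highest VPA array for Neto1. Grik2 and Neto1, on the other hand, had 0.867 within groups, the highest there. These are descriptions over 9 arrays that share groups.

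The genes whose levels followed each of the 7 most closely were taken from those with a mean level over 6.6, of which there were 8339 (8340 for Grik1). For Grik4 they were Prkca (r = 0.987), Snapc2 (0.974), which encodes a subunit of the complex for small nuclear RNA transcription, and Nr3c2 (0.974), which encodes the mineralocorticoid receptor. For Neto1 they were Rims1 (r = 0.974), which encodes a scaffold of the presynaptic release site, Rapgef4 (0.957), which encodes a cyclic AMP sensor, and Slit1 (0.952), an axon guidance gene. For Grik1 they were Cycs (r = 0.963), which encodes cytochrome c, Ttc39b (0.904) and Pdxkl1 (0.899). With Prkca the correlation of Grik4 was 0.908 within groups, and with Rims1 that of Neto1 was 0.942.

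The remaining genes had other neighbours. Grik2 was followed by the kinase gene Taok1 (r = 0.972), Thumpd1 (0.963) and Rc3h2 (0.96), and Grik3 by the RNA helicase gene Dhx9 (0.953), Pdk3 (0.949) and the somatostatin receptor gene Sstr1 (0.945). Grik5 was followed by Cyria (r = 0.92), the profilin gene Pfn2 (0.913) and Rapgefl1 (0.913), and Neto2 by Pik3cb (0.953), Marf1 (0.941) and Mrpl45 (0.922). No gene stood among the 3 closest of more than 1 of the 7.

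Among the 9 arrays the median log2 level was 5.75 to 5.82, and 10955 to 11189 probe sets lay over 6.6. The mean of 7 markers of neurons in general (such as Map2, Eno2 and Nefl) was 10.3 to 10.5 on all arrays. Of these 7, Rbfox3 was lower with vehicle than in control (-0.33) and Nefm was higher (0.29). With OXT, Rbfox3 (-0.32) and Syn1 (-0.26) were lower and Nefm was higher (0.21). The lowest correlation between arrays of a group was 0.9827.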

How the data were processed

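Total RNA of the dorsal hippocampus was labelled and hybridised to Rat Gene 2.0 ST arrays, 1 per rat (9 arrays). The deposited log2 values, 1 per probe set and array, had been normalized by the authors and were used without change. The labels name Affymetrix Expression Console, and the methods name Transcriptome Analysis Console 4.0 for the analysis. The step that made the values, the summarization method and the genome build are not given in the sources used here, and 3 arrays per group limit the precision. Symbols came from the platform annotation, updated through Entrez numbers to RefSeq names (18394 probe sets matched). None of the 7 genes had more than 1 probe set, so that the choice of the highest or the mean was not needed.

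Groups were compared in limma 3.58.1 (R 4.3.3) with lmFit and eBayes on all 30429 probe sets, with Benjamini-Hochberg adjustment over all of them. The fit was tested on simulated data with 200 changed probe sets. Named genes were the 7 members, the 3 genes most correlated with each, the partner genes with the lowest F p, up to 2 genes of each other receptor list, and the highest markers of each cell type list, and other markers (Sst, Nr2f2, Galr1, Rbfox3, Syn1 and Nefm) were named after their values were seen. Members and lists were chosen with earlier results of these data known. Alternatives concerned the scaling of arrays (quantile, median), array weights, the groups in the fit, the moderation of variances (trend and robust, or none), the probe sets tested (level over 6.6, or 1 per gene), a replicate block, leaving out each array, and 2 choices of arrays made after seeing the data. Sequences were from RefSeq, assembly GRCr8, where 7 of the 7 genes matched. Protein sequences were not used here.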

Additional observations from a re-analysis of the deposited data

How the results depend on the processing

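Over 553 values of single genes under the alternatives, 464 kept their direction and side of the threshold, 29 lost and 32 gained the call, and 28 changed sign. Grik4 was lower in vehicle-treated VPA than in control under all 20 alternatives (-0.80 to -0.46), and Grik1 higher under all 20 (0.455 to 0.58). Between vehicle-treated VPA and control, 5 genes were called (3 as reported) with trend and robust moderation and after a filter to levels over 6.6, where 9.48% and 15.1% of the probe sets tested were called (8.98% as reported) and 80 and 140 passed at an adjusted p under 0.05 (0 as reported). Of the 7 genes 2 did so with that filter (Grik4, limma adjusted p = 0.0388, and Grik1, 0.0463). Grik1 passed it only through the group in which it was high. With OXT against control the filter gave only Grik4 under 0.05 (limma adjusted p = 0.0281), as for both VPA groups (0.0151) and F (0.0445). With the filter 163 probe sets passed with OXT against control (0 as reported) and 252 for both VPA groups (2 as reported). For both VPA groups against control array weights and trend and robust moderation also gave 1, Grik4. Between OXT-treated VPA and control the count of called genes (2 as reported) was 5 with array weights, 4 with trend and robust moderation, 5 with the filter and 1 without the 4 VPA arrays numbered 1 and 2. Of the probe sets tested, 11.3%, 7.72%, 12.9% and 14.7% were called under these settings (7.38% as reported). Between the VPA groups it was 0 to 1 when 1 array was left out (4.1% to 5.88% of probe sets). It was 0 without both VPA arrays numbered 3 (5.45%). Without the 4 VPA arrays numbered 1 and 2 it was 1, but the gene was Grik2 in place of Grik1. For both VPA groups against control it was 3 to 5 when 1 array was left out, with 3 without control replicate 2, vehicle-treated VPA replicate 1 or OXT-treated VPA replicate 2.

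Sign changes were confined to differences that had not passed. Without both VPA arrays numbered 3, Grik2 and Grik3 differed from control by -0.035 and -0.0183 with vehicle, Grik2 by -0.0525 over both VPA groups, and Neto2 by 0.07 between the VPA groups. Without the 4 VPA arrays numbered 1 and 2, Grik3 and Grik4 differed by -0.16 and 0.17 between the VPA groups, and Grik2 by 0.06 between OXT-treated VPA and control. Between the VPA groups Grik5 differed by -0.00889 after quantile normalization, Grik3 by -0.00333 after median centring and Neto2 by 0.0596 with array weights. When 1 array was left out, the difference from control with vehicle was -0.035 to 0.275 for Grik2 and -0.0183 to 0.327 for Grik3. Between the VPA groups it ranged from -0.302 to 0.00833 for Grik2, -0.153 to 0.192 for Grik3, -0.148 to 0.0267 for Grik4, -0.0233 to 0.0517 for Grik5, -0.307 to 0.0183 for Neto1 and -0.0617 to 0.0433 for Neto2. For Grik2 it was -0.085 to 0.075 with OXT against control and -0.0308 to 0.124 for both VPA groups against control.

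Over all probe sets, same-numbered arrays of different groups did not deviate together (correlations of -0.212 to 0.101). Arrays of different numbers had -0.153 to 0.224. Such values cannot show whether the numbers pair the rats or mark a batch, which the labels do not say. The mean of the thalamus markers was lowest on replicate 3 in both VPA groups, but not in control. With the replicate block 3 genes were called with vehicle (8.34% of all probe sets) and 3 with OXT (6.89%) against control. It was 1 between the VPA groups (4.45%), 3 for both VPA groups against control (8.52%, 5 genes as reported) and 3 by F. With vehicle against control, the block lowered the SE of Neto1 (0.193 to 0.112) and Grik1 (0.104 to 0.0778). It raised those of Grik4 (0.112 to 0.127), Grik5 and Neto2.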
